A study of Mus musculus with 2 samples.

Results

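The enzymes and transporters that build and sulfate glycosaminoglycan chains were examined in cells labelled as superficial zone (SFZ). Superficial zone cells are the flattened chondrocytes at the surface of articular cartilage. The 43 genes were chosen by name from knowledge of the pathway, and all 43 were among the 15719 genes listed with a wild-type value. The cells came from C57BL/6 mice on postnatal day 5. Of 2 libraries of polyadenylated RNA, 1 was wild type (WT) and 1 carried a knockout of Prg4 (Prg4KO), which encodes the joint lubricant lubricin. Femoral ends and the upper tibia were cleared of ligament, tendon and synovium, digested with 0.25% trypsin and then with type I collagenase at 173 U/mL, and the cells were seeded on fibronectin. The labels do not state how many mice went into a library, their sex, the knockout allele or how long the cells were cultured. The comparison asks how loss of lubricin is reflected in the transcripts of these enzymes. With 1 library per genotype there is no test between genotypes, and every difference below describes these 2 libraries.

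Glycosaminoglycans are long sugar chains attached to proteoglycan core proteins such as aggrecan. A short linker is built on a serine of the core protein and is then extended either as chondroitin or dermatan sulfate or as heparan sulfate, and sulfotransferases decorate the chain in the Golgi. Each sulfate group comes from PAPS, the activated sulfate donor made in the cytosol, and each sugar comes from a UDP-sugar. In cartilage, chondroitin sulfate on aggrecan holds water and gives the tissue its stiffness under load, while heparan sulfate holds growth factors near the cell surface.

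Levels are given as FPKM, fragments scaled to effective transcript length and library size, which can be compared between genes. Expected counts, the estimated reads of a gene, are given where the depth behind a value matters. They summed to 21619093 for WT and 21392574 for Prg4KO. Past its first 20 rows the deposited table has lost the register between Prg4KO values and gene names, so the values were re-paired with genes by order and effective length. All 43 genes were paired at a probability of at least 0.999573, and 36 of the pairs agreed in effective length to within 0.2%. Since the pairing itself used effective length, that agreement is no separate check. Log2 ratios are Prg4KO over WT on FPKM + 1, which understates differences of genes with low FPKM. Across the 6699 genes that reached 5 FPKM in each library the median ratio was 0.13, so ratios are given relative to that median unless stated. The cell preparation and the knockout were checked on markers. Prg4 stood at 593 FPKM for WT and at 0.10 FPKM, from 6.15 counts, for Prg4KO; its pair rests on row order, since the effective lengths differed by -32.6%. Chondrocyte markers such as Col2a1 (14594 and 15702 FPKM) and the fibrous collagen gene Col1a1 (11470 and 5593) were both abundant. Markers of hypertrophic chondrocytes (summed FPKM 415 and 601) and of red cells (1648 and 2675) were present too. The libraries thus did not hold RNA of superficial zone cells alone. In such a library, fewer cells of a type and less RNA per cell cannot be told apart.

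The pathway as a whole lay around the all-gene median, while 4 genes as deposited lay outside 1.5-fold of it: 2 higher, where 2.65% of all genes lay, and 2 lower, where 3.15% lay. Of these 4, Ugdh was inside 1.5-fold, at a log2 ratio of 0.49, after correction for a trend of the ratio with transcript length and GC. PAPS synthase 2 (Papss2) and UDP-glucose dehydrogenase (Ugdh) were higher for Prg4KO. The extracellular sulfatase gene Sulf2 and the chondroitin sulfotransferase gene Chst12 were lower. The enzymes that assemble and polymerise the chains were spread on both sides of the all-gene median. None of the members passed a log2 ratio of 1 in size. Of all 7367 genes with an FPKM of at least 5 in the higher library, 0.462% passed it on the higher side and 0.109% on the lower side, so 0 of 34 members over that level is near the background. The background split between higher and lower genes moved with the scaling, from 34 and 8 as deposited to 29 and 15 when the 20 genes of highest level were left out, 15 and 19 with TMM factors and 16 and 17 at a common median.

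**Figure D1:**
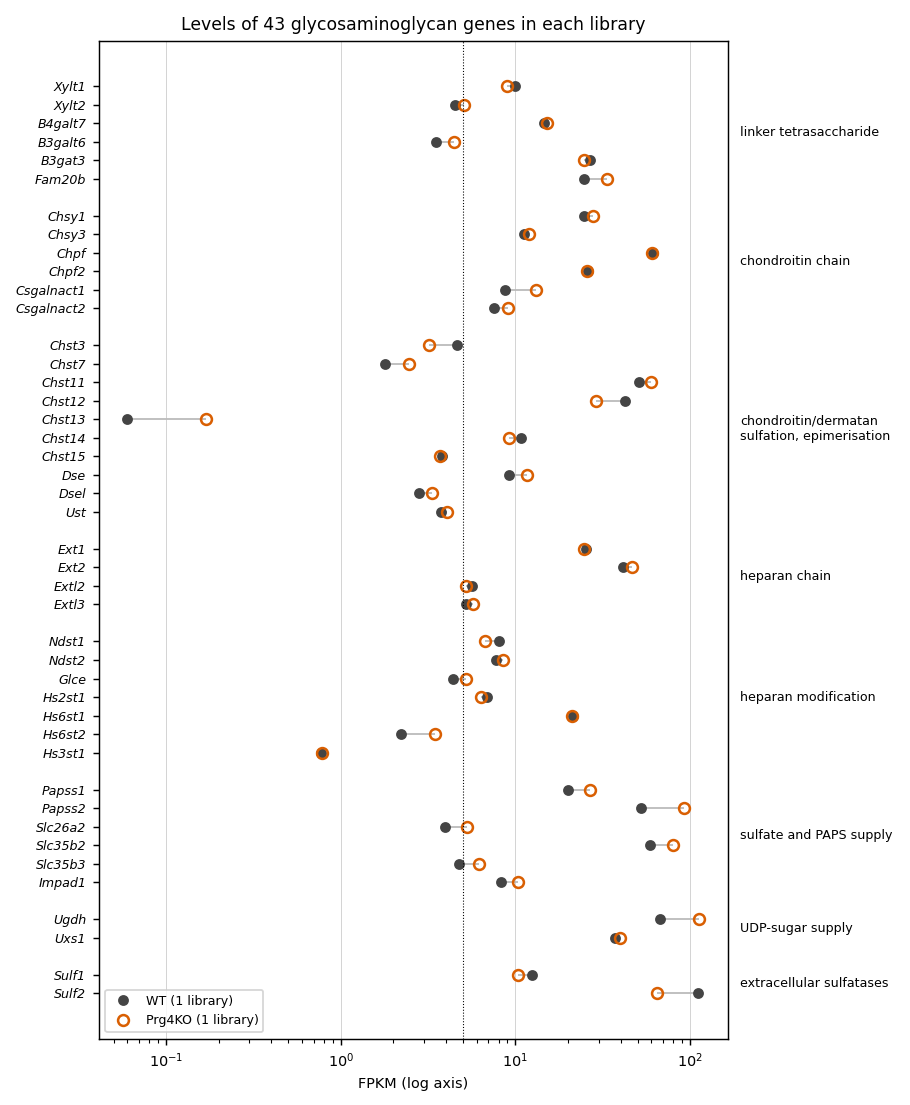
FPKM on a log axis for the 43 genes, ordered by role, with filled points for the WT library and open points for the Prg4KO library, 1 library each, and a dotted line at an FPKM of 5. Most points of a gene lie close together; Papss2 (52.4 and 92.4), Ugdh (67.4 and 113) and Sulf2 (110 and 64.7) are the abundant genes with visibly separate points.

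Of the 43 genes, 41 had an FPKM of at least 1 in both libraries, and 34 had at least 5 in 1 of them or both. Xylt2, Glce, Slc26a2 and Slc35b3 reached 5 only for Prg4KO. The 9 under that level in both were B3galt6, Chst3, Chst7, Chst13, Chst15, Dsel, Ust, Hs6st2 and Hs3st1. The ratio lay above the all-gene median for 21 of the 43 genes, and the median of the 43 was -0.01, or 0.06 corrected for length and GC. Among the 34 over the level, 16 lay above the all-gene median, beside 52.1% of all genes over it; these 16 include the 4 genes that reached the level only for Prg4KO. Of the 30 members with at least 5 FPKM in both libraries, 12 lay above it, with a median of -0.04. The middle part of the members, from the 25th to the 75th percentile, ran from -0.17 to 0.17, and that of all genes from -0.19 to 0.21. At a limit of 1.5-fold without centring, Papss2 and Ugdh were on the higher side, where 6.31% of all genes lay, and Sulf2 on the lower, where 1.52% lay. At 1.5-fold relative to the all-gene median, the same 2 genes were higher, beside 2.65% of all genes, and Sulf2 and Chst12 were lower, beside 3.15%.

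Promoters are shown for these 4 genes because they had the largest ratios among the members over the FPKM level. The sequences are RefSeq's on GRCm38.p6 and run from 250 bases before to 50 after an annotated start. Capitals mark matches to the GC box (GGGCGG) and the TATA box (TATAAA) on both strands. Papss2 has 2 annotated starts in that table, and Sulf2 has 2 of which the upstream is printed.
Papss2, chr19:32595465-32595764, plus strand: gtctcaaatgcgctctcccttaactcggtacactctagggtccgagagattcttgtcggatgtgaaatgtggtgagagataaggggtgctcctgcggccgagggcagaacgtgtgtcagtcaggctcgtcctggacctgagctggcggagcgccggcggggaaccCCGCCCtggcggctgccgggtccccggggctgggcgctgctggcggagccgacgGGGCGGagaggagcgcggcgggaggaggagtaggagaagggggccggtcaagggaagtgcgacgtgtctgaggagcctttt
Papss2, chr19:32619755-32620054, plus strand: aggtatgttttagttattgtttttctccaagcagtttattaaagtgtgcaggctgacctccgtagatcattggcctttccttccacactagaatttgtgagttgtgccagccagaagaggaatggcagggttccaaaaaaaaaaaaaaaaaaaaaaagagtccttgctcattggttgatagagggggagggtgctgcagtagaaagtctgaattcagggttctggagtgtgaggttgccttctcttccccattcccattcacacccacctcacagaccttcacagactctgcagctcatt
Ugdh, chr5:65435793-65436092, minus strand: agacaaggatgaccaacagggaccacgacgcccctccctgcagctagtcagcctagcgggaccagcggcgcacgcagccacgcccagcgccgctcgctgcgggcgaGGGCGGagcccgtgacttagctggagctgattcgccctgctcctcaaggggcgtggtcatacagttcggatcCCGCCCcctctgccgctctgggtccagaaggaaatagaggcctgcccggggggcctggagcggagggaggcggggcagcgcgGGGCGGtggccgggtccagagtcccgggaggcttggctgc
Chst12, chr5:140505359-140505658, plus strand: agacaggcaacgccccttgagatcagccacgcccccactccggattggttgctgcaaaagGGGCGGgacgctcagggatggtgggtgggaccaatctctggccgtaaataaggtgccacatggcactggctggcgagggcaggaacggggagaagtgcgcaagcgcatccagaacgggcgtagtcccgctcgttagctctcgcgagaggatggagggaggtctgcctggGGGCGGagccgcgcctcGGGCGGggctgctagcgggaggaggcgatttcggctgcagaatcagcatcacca
Sulf2, chr2:166155634-166155933, minus strand: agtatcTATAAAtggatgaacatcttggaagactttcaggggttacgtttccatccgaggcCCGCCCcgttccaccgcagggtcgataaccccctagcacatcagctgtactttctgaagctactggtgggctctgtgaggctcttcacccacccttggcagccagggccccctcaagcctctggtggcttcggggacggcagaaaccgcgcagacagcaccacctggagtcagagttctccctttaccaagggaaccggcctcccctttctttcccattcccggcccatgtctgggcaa
The upstream Papss2 start has 27 CpG dinucleotides and 2 GC boxes, and the downstream start has 1 CpG and 0 GC boxes. The counts by gene do not separate the starts, so the level of each is not known. The Ugdh window has 27 CpG and 3 GC boxes and the Chst12 window has 24 CpG and 3 GC boxes, although the ratios of these 2 genes lay on opposite sides. The Sulf2 window has 12 CpG, 1 GC box and 1 TATA box, and the other Sulf2 start has 26 CpG and 0 of either box. A GC box is found in 35.7% and a TATA box in 13.6% of 32841 promoters of this length, and the median number of CpG is 7. The SOX core motifs ACAAAG and ACAATG, found on either strand in 28.6% of promoters, are in none of these windows or in the other Sulf2 window. A match or its absence here describes letters in a window and says nothing of binding.

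In the supply of activated sulfate all 6 genes lay above the all-gene median as deposited, beside 52.1% of all genes over 5 FPKM. After the correction for length and GC, 5 of the 6 lay above it. Slc26a2 and Slc35b3 reached 5 FPKM only for Prg4KO, and entry by that library favours a place above the median. The 6 ratios ran from 0.16 to 0.67 with a median of 0.24 (0.20 corrected). Summed FPKM of the 6 genes was 148 for WT and 221 for Prg4KO. Without Papss2 the sums were 95.9 and 129. Papss2, which makes PAPS from sulfate and ATP and is the main form in cartilage, lies on chromosome 19 from 32595669 to 32667187 in GRCm38. Levels were 52.4 for WT and 92.4 for Prg4KO, from 4101 and 7170 expected counts. The count ratio per library total was 1.77 (95% interval 1.70 to 1.84, counting error only), and 111 of the 7367 genes had a higher ratio. Its relative log2 ratio was between 0.66 and 0.68 under the 9 alternatives that can change a ratio, and 0.68 corrected for length and GC. Alternatives that only rescale a library move all genes nearly alike. A ratio relative to the all-gene median can therefore hardly change under them.

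The other form, Papss1, had 20.1 FPKM for WT and 26.8 for Prg4KO, a relative log2 ratio of 0.27. Papss2 was thus 2.61 times as high as Papss1 for WT and 3.44 times for Prg4KO. Slc35b2, the main carrier of PAPS into the Golgi, had 58.9 and 80.2 FPKM (relative log2 ratio 0.30). Its less abundant relative Slc35b3 had 4.72 and 6.22 (0.20, and 0.06 corrected). The counting interval of the Slc35b3 count ratio, 1.09 to 1.59, spans the all-gene ratio of 1.11. Slc26a2, the sulfate transporter of the plasma membrane that is mutated in human diastrophic dysplasia, had 3.95 and 5.26 FPKM (0.20, and 0.14 corrected), from 332 and 438 counts. Impad1, the Golgi phosphatase that clears the by-product of sulfation, had 8.23 and 10.3 FPKM (0.16). Count ratios in this group ran from 1.26 for Impad1 to 1.77, and the median count ratio of all genes was 1.11. Impad1 was the gene that crossed the all-gene median on correction, to -0.02.

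Of the UDP-sugar genes, Ugdh lay above the all-gene median and Uxs1 slightly below it. Ugdh makes UDP-glucuronic acid, a building block of chondroitin, heparan and hyaluronan chains, and lies on chromosome 5 from 65413207 to 65435842. Levels were 67.4 for WT and 113 for Prg4KO, from 3588 and 5939 counts. The count ratio was 1.67 (1.6 to 1.74), and the relative log2 ratio of 0.60 was 0.49 corrected for length and GC, which is inside the 1.5-fold limit. A gene model on the same strand, Gm43552, shares up to 158 bases of an exon with it. Uxs1, which turns UDP-glucuronic acid into UDP-xylose for the linker, had 37.2 and 39.9 FPKM, at -0.04 relative to all genes and -0.31 corrected. The level of Ugdh was further above that of Uxs1 for Prg4KO than for WT.

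**Figure D2:**
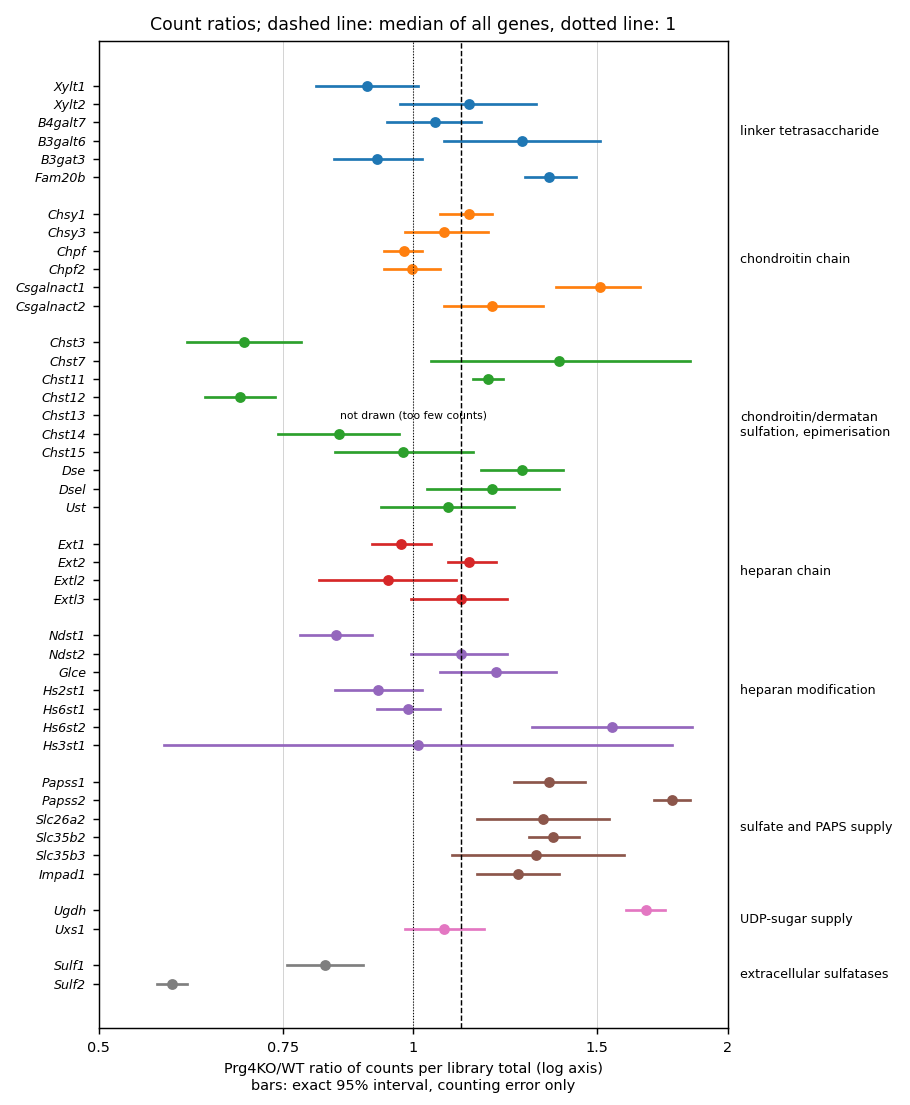
Prg4KO to WT ratio of counts per library total on a log axis for each gene, with exact 95% intervals that cover counting error only; the dashed line is the median of all genes (1.11) and the dotted line is 1. Points of the sulfate and PAPS supply genes lie to the right of the dashed line, though the interval of Slc35b3 crosses it. Sulf2, Chst12 and Chst3 lie farthest to the left. Chst13 (2 and 6 counts) is not drawn.

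The chain between supply and release was split. Of the 33 linker, polymerisation, sulfation and epimerisation genes, 14 lay above the all-gene median. The 33 include the 9 members under 5 FPKM in both libraries. Among members over that level, 2 of 5 linker and 3 of 6 chondroitin chain genes lay above the median. So did 2 of 4 chondroitin and dermatan sulfation and epimerisation genes, 1 of 4 heparan chain and 1 of 5 heparan modification genes. Of all genes over 5 FPKM, 52.1% lay above it. The median of the 33 was -0.04. Corrected for length and GC, the group medians were 0.09 for the linker and 0.11 for the chondroitin chain. They were -0.01 for chondroitin and dermatan sulfation and epimerisation, -0.05 for the heparan chain and 0.02 for heparan modification. The lean below the all-gene median was thus not kept in every group. Counting intervals lay above the all-gene ratio of 1.11 for 11 of all 43 genes and below it for 14, and spanned it for 18. For those 18 the depth does not separate the gene from the all-gene median. The same shares over all genes were not computed, so these counts describe depth and do not set the pathway apart.

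In the linker group 3 of 6 genes lay above the median, and the group's median was -0.03, or 0.09 corrected. Xylt1 and Xylt2 add xylose to the core protein, the step that commits it to carry a chain. Xylt1 had 9.92 FPKM for WT and 8.95 for Prg4KO (-0.27), and Xylt2 had 4.48 and 5.04 (0.01, but -0.02 with a pseudocount of 5 and 0.26 corrected). B4galt7 and B3galt6 add the 2 galactoses of the linker, and B3gat3 adds the glucuronic acid that completes it. B4galt7 had 14.5 and 15.1 FPKM (-0.08, and -0.01 corrected), B3galt6 had 3.51 and 4.47 (0.14) and B3gat3 had 26.7 and 24.6 (-0.25, and -0.15 corrected). Fam20b, the kinase that phosphorylates the linker xylose and so promotes completion of the linker, had the highest ratio of the group, with 24.7 and 33.4 FPKM (0.28) and a count ratio of 1.35 (1.28 to 1.43).

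Among the chondroitin chain genes 3 of 6 lay above the median (group median -0.01, and 0.11 corrected), and Csgalnact1 stood highest. Csgalnact1 and Csgalnact2 place the first N-acetylgalactosamine on the linker and thereby start a chondroitin chain. Csgalnact1 had 8.71 FPKM for WT and 13.1 for Prg4KO, a count ratio of 1.51 (1.37 to 1.65) and a relative log2 ratio of 0.40. Csgalnact2 had 7.58 and 9.01 FPKM (0.09, and -0.11 corrected for length and GC). The polymerising enzymes were closer to the median. Chsy1 had 24.7 and 27.8 FPKM (0.03, and 0.18 corrected), Chsy3 had 11.1 and 11.9 (-0.04, and -0.01 corrected), and their partner subunits Chpf and Chpf2 had 61.6 and 60.3 (-0.16) and 25.9 and 25.7 (-0.14). Chpf and Chpf2 lay above the median, at 0.12 and 0.11, on correction. Chpf2 shares up to 2050 bases of an exon with Smarcd3 on the other strand, and whether counting used strand is not stated in the labels. Noncoding or unclassified gene models on the other strand also overlap exons of B4galt7, Fam20b, Chsy1, Chst15, Hs6st1 and Slc35b3, by 108 to 614 bases, and their reads cannot be told apart without strand.

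Transcript ratios of the chondroitin sulfotransferases differed by enzyme within each position. Chst11, Chst12 and Chst13 sulfate carbon 4 of N-acetylgalactosamine. Chst11 was the most abundant sulfotransferase gene of the list, with 50.8 FPKM for WT and 59.9 for Prg4KO (relative log2 ratio 0.10, and 0.23 corrected). Chst12, on chromosome 5 from 140505569 to 140525238, had 42.2 and 28.8 FPKM, from 1637 and 1106 counts. Its count ratio was 0.683 (0.632 to 0.737) and its relative log2 ratio -0.67, and 142 of the 7367 genes had a lower ratio. The Chst11 share of the summed FPKM of this step was 54.6% for WT and 67.4% for Prg4KO. Chst13 had 2 counts for WT and 6 for Prg4KO, too few for a comparison.

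Chst3 and Chst7 sulfate carbon 6. Chst3, the main enzyme for that position in cartilage, had 4.65 FPKM for WT and 3.19 for Prg4KO, from 622 and 424 counts (count ratio 0.688, 0.607 to 0.780). Its relative log2 ratio of -0.57 was -0.32 corrected and -0.34 with a pseudocount of 5. As deposited, the 5th to 95th percentile of genes over 5 FPKM, a level Chst3 did not reach, ran from -0.50 to 0.49. The matching percentiles on the other scales were not computed. Chst7 had 1.79 and 2.47 FPKM, from 87 and 119 counts (count ratio 1.38, 1.04 to 1.84; relative log2 ratio 0.18, and 0.33 corrected), so the Chst3 share of the pair was 72.2% and 56.4%. Chst11 and Chst12 lay on opposite sides of the all-gene median, and so did Chst3 and Chst7. Without centring on that median, the summed FPKM of each position was lower for Prg4KO. The sum was 93.1 and 88.9 for the carbon 4 enzymes and 6.44 and 5.66 for the carbon 6 enzymes, a ratio of 14.5 for WT and 15.7 for Prg4KO. These are transcript levels and do not give the sulfation of the chains.

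The dermatan enzymes were mixed as well. Dse and Dsel turn glucuronic into iduronic acid. Dse had 9.19 FPKM for WT and 11.7 for Prg4KO (0.18) and Dsel 2.81 and 3.34 (0.05, and -0.05 corrected). Chst14, which sulfates dermatan next to iduronic acid, had 10.8 and 9.15 FPKM (-0.35, count ratio 0.849, 0.742 to 0.97). Chst15, which adds a further sulfate to chondroitin already sulfated at carbon 4, had 3.81 and 3.72 (-0.16, and -0.05 corrected), and Ust, the uronyl sulfotransferase, had 3.74 and 4.03 (-0.05, and 0.03 corrected).

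**Figure D3:**
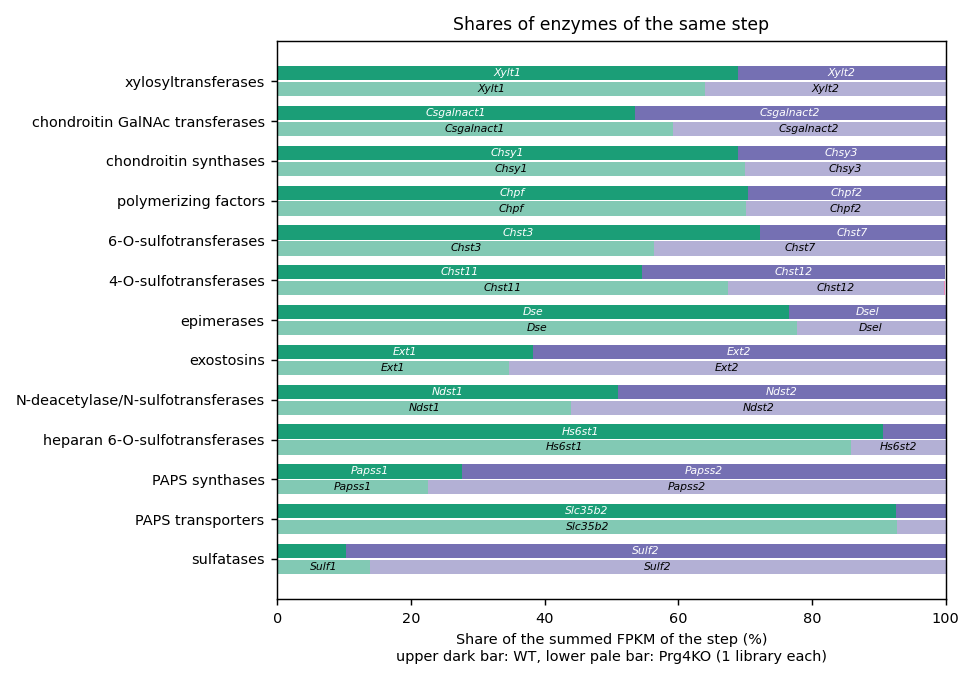
Share of each enzyme in the summed FPKM of its step, in percent, with the WT library as the upper dark bar and the Prg4KO library as the lower pale bar, 1 library each. Chst11 takes a larger share of the carbon 4 sulfotransferases (54.6% and 67.4%) and Chst3 a smaller share of the carbon 6 sulfotransferases (72.2% and 56.4%) for Prg4KO; Chpf and Slc35b2 shares differ by less than 1 point.

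Heparan sulfate genes lay on both sides of the all-gene median. In the chain group 1 of 4 lay above the all-gene median (group median -0.09, and -0.05 corrected), and in the modification group 2 of 7 (-0.13, and 0.02 corrected). Ext1 and Ext2 form the polymerase. Ext1 had 25.5 FPKM for WT and 24.8 for Prg4KO (-0.17, and -0.27 corrected) and Ext2 41.1 and 46.6 (0.04, and 0.16 corrected). Extl3, which starts the chain, had 5.21 and 5.75 (-0.01, and 0.24 corrected). Extl2, which can cap a phosphorylated linker, had 5.62 and 5.21 (-0.23). Ndst1 and Ndst2 replace acetyl groups by sulfate, the step on which later modifications depend. Ndst1 had 8.04 and 6.71 FPKM (-0.36, but -0.07 corrected), and Ndst2 had 7.73 and 8.53 (-0.01, and 0.18). The Ndst1 share of the pair was 51.0% for WT and 44.0% for Prg4KO.

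The remaining heparan modifiers had relative log2 ratios from -0.23 for Hs2st1 to 0.34 for Hs6st2. The epimerase gene Glce had 4.36 FPKM for WT and 5.23 for Prg4KO (0.08, and 0.02 corrected). The uronyl sulfotransferase gene Hs2st1 had 6.89 and 6.37 (-0.23), and the counting interval of its count ratio of 0.925 lay below the all-gene ratio of 1.11. Hs6st1, which sulfates carbon 6 of glucosamine, had 21.3 and 21.01 FPKM (-0.15, and 0.07 corrected). Hs6st2, with the same activity, had 2.21 and 3.45 FPKM from 213 and 326 counts (count ratio 1.55, 1.30 to 1.85). Hs3st1, which makes the antithrombin-binding form in other tissues, had 28 counts in each library, and with a count ratio of 1.01 (0.577 to 1.77) no difference within these bounds was detectable at this depth.

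The genes that remove sulfate outside the cell had the lowest ratios of the list by group. Sulf1 and Sulf2 cut sulfate from carbon 6 of heparan sulfate at the cell surface and so change which growth factors it binds. Sulf2, on chromosome 2 from 166073899 to 166155683, was the most abundant of the 43 genes in the WT library, at rank 558 of 15719. Levels were 110 for WT and 64.7 for Prg4KO, from 9154 and 5326 counts. The count ratio was 0.588 (0.568 to 0.608), and 30 of the 7367 genes had a lower ratio. The relative log2 ratio of -0.90 was between -0.91 and -0.74 under the alternatives. A gene on the other strand, Ncoa3, shares up to 154 bases of an exon with Sulf2. Sulf1 had 12.5 and 10.3 FPKM (-0.39), with a count ratio of 0.823 (0.757 to 0.895). For Prg4KO the highest members were Ugdh and Papss2.

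Other genes of the pathway, written out as a list of 36, had a median of -0.03 (0.04 corrected) over the 31 that were paired. Of these 31, 14 lay above the all-gene median and 0 were past a log2 ratio of 1. Among the 16 with at least 5 FPKM in the higher library, 10 lay above it, with a median of 0.09. The pseudocount draws genes of very low FPKM to a ratio just below the all-gene median. The 4 most abundant were Gfpt2, which feeds the hexosamine pathway (66.4 and 68.6 FPKM, -0.09), the tyrosine sulfotransferase gene Tpst1 (43.5 and 40.8, -0.23), the UDP-galactose carrier gene Slc35a2 (35.2 and 35.8, -0.11) and Ugp2, which makes the UDP-glucose that Ugdh uses (32.3 and 44.1, 0.30, and 0.09 corrected). Genes for lysosomal and extracellular breakdown of the chains had a median of -0.14 (-0.07 corrected) over 20, with 5 above the all-gene median and 0 past the limit. Among the 14 of them over 5 FPKM, 4 lay above it, with a median of -0.08. Among their 4 most abundant members were Hexa (66.2 and 69.1 FPKM, -0.07) and Arsb (20.5 and 18.2, -0.30).

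Core proteins that carry the chains, or are often counted with them, had a wider range than the enzymes, mainly through Epyc. Of 31 paired core protein genes, 8 lay above the all-gene median; the list's own median was -0.17 as deposited and 0.02 corrected. Biglycan (Bgn) had 3862 FPKM for WT and 3182 for Prg4KO (-0.41), fibromodulin (Fmod) 3628 and 2285 (-0.80), and aggrecan (Acan) 527 and 436 (-0.41, and -0.10 corrected). Col9a2, a collagen chain of cartilage, had 985 and 1466 (0.44). Epyc, a small proteoglycan of cartilage, was past the limit as deposited, at 101 and 247 (1.14, and 0.81 corrected). As deposited, the core proteins ranged from -0.91 to 1.14 and the enzymes from -0.90 to 0.67, so the ranges differed mainly at Epyc. Corrected for length and GC, they ran from -0.81 to 0.81 and from -0.74 to 0.68.

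**Figure D4:**
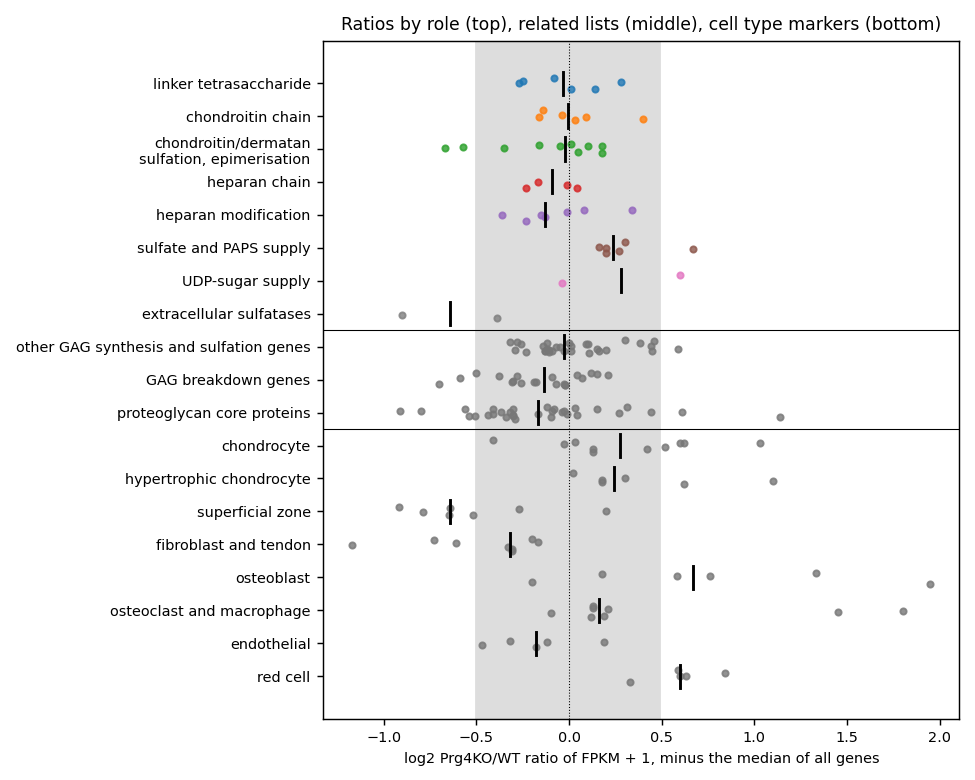
Relative log2 ratio of each gene by role (top 8 rows), related lists (middle 3) and cell type markers (bottom 8); black bars are medians, and the grey band runs from the 5th to the 95th percentile of all 7367 genes (-0.50 to 0.49). Prg4 is left out of the superficial zone row. As deposited, Sulf2, Chst12 and Chst3 (-0.32 corrected) lie to the left of the band and Papss2 and Ugdh to the right.

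Cell type markers differed between the libraries as well. Chondrocyte markers lay above the all-gene median for 8 of 10, with summed FPKM of 19440 for WT and 22330 for Prg4KO, and hypertrophic markers for 6 of 6 (415 and 601). Fibroblast and tendon markers lay above it for 0 of 8 (18650 and 10670), and superficial zone markers, Prg4 included, for 1 of 8 (1067 and 310). Without Prg4 the other 7 summed to 474 and 310. Osteoblast markers lay above it for 5 of 6 (75.5 and 93.2), osteoclast and macrophage markers for 7 of 8 (195 and 271), endothelial markers for 1 of 5 (70.5 and 67.0) and red cell markers for 5 of 5 (1648 and 2675). Dcstamp was the only marker of these lists with no listed value. Their part in the ratios of Papss2, Ugdh, Chst12 and Sulf2 was not tested.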

How the data were processed

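Polyadenylated RNA of 1 WT and 1 Prg4KO library was analysed, grouped by the genotype label. Per the file headers, the authors deposited expected counts and FPKM. Per the submitters' processing notes HISAT2, Bowtie2, RSEM and mm10 were used, without versions or roles; strand use in counting was not given in the sources used here. The table holds no value of 0. The length column deposited by the authors was used in bases.

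The table has 15719 gene names but 15973 Prg4KO entries, so 254 rows lack a name. Log2 FPKM correlated between columns at r = 0.96 across the first 20 rows and 0.0841 across later rows. The Prg4KO rows were re-paired by a pair hidden Markov model on row order and count/FPKM against length minus 36.5 bases, without comparing levels. It was tested on simulated data. Pairs at a probability of at least 0.95 covered 15052 genes, where r was 0.981 (across genes, not replicates). A simpler version of the model, with an equal chance of a missing partner for every row, gave the same row for all 43 members.

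Ratios use a pseudocount of 1 FPKM and a larger FPKM of at least 5. Intervals on counts and ratios are exact at 95% and cover counting error only; expected counts are not independent molecules. The trend is a quadratic fit on log2 length and GC content (GENCODE M21 transcripts, found for 99.4% of genes), which held 26.9% of the variance over 6678 genes. Positions and promoters are RefSeq's on GRCm38.p6, the build called mm10; 34 of 43 members had a promoter there. TMM factors came from edgeR 4.0.16 on rounded counts. Python 3.11.15, scipy 1.17.1 and numba 0.67.0 were used. All members are named; of each related list, the 4 with the highest WT FPKM and any past the limits, apart from some genes that are not reported here. Members, lists and limits were chosen with earlier results of these data known.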

Additional observations from a re-analysis of the deposited data

How the results depend on the processing

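No member passed the 2-fold limits under 12 of the 13 alternatives; with a 1.5-fold limit 3 did, and 577 genes in all. The count of genes past the limits was 42, and it was 65 with a pseudocount of 0.1 FPKM, 14 with a pseudocount of 5 and 23 after correction for length and GC. The median of the members relative to all genes stayed between -0.04 and 0.07. Of the 43 members, 32 kept their side of the all-gene median under the 9 alternatives that can change a ratio, among them Papss2, Ugdh, Chst12 and Sulf2. The exceptions were Chpf, Chpf2, Csgalnact2, Ust, Ndst2, Hs6st1 and Impad1 corrected, Xylt2 and Chst13 with a pseudocount of 5, Dsel with both, and Extl3 with TMM factors and corrected; the cause was not tested. Alternatives that only rescale a library move all genes nearly alike, so they can hardly change a side. Papss2, Ugdh, Chst12 and Sulf2 were named for their large ratios, so their keeping a side is little evidence of stability. No paired analysis was possible because each genotype had 1 library. The spread between cultures is unknown, and the lowest counts (Chst13, Hs3st1, Chst7) limit what the depth can show.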

Other observations

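The following 3 related genes were picked after their values were seen. Bpnt1, a cytosolic phosphatase that acts on the same by-product of sulfation as Impad1, had 8.01 FPKM for WT and 12.5 for Prg4KO (relative log2 ratio 0.45, and 0.32 corrected for length and GC). Naglu, a lysosomal enzyme that breaks down heparan sulfate, had 18.2 and 11.9 FPKM (-0.70, and -0.53). The heparan sulfate core protein gene Hspg2, perlecan, had 125.5 and 72.7 FPKM, a relative log2 ratio of -0.91 as deposited and -0.28 corrected, while Sulf2 was at -0.90 and -0.74 on the same scales.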
